A study of Homo sapiens with 2 samples.

Results

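The SR splicing factors are RNA-binding proteins that recognise exons and recruit the spliceosome, and 10 of their genes were followed in a human ovarian cancer cell line and its olaparib-resistant derivative. The members were all rows of the deposited expression table with the gene name SRSF1, SRSF2, SRSF3, SRSF4, SRSF5, SRSF6, SRSF7, SRSF10, SRSF11 or TRA2A. They came to 48 transcripts of 47892 and 10 genes of 16978. The parental group was SKOV3, an ovarian adenocarcinoma line of wild-type genotype by its label, without treatment. The resistant group, SKOV3-OR, was derived from it by continuous growth in olaparib, a drug that blocks the repair enzymes PARP1 and PARP2, at a sub-IC50 concentration for at least 3 months. Each group was 1 library of total RNA depleted of ribosomal RNA. The differences below therefore have no replicate check, no test was possible, and they describe these 2 libraries.

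An SR protein carries an RNA recognition motif and a domain rich in arginine and serine, whose phosphorylation by the SRPK and CLK kinases governs its entry into the nucleus and its binding to partners. SR proteins bind exonic enhancers and help define splice sites, and several also act in mRNA export and 3′ end formation. Many SR genes limit their own output: excess protein promotes the use of an ultraconserved "poison" exon with an early stop codon, or the keeping of an intron, and the resulting RNA is degraded by nonsense-mediated decay (NMD) or held in the nucleus.

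The isoforms listed for these genes were annotated as non-coding wherever a type was found. Whether they are degraded or held in the nucleus was not tested. In GENCODE release 29 (GRCh38), 47 of the 48 transcripts were found, all with the same start and end. Of these, 29 were annotated as retained-intron transcripts and 18 as processed transcripts without an open reading frame. The type of SRSF6-206 is unknown here. None was annotated as protein-coding or as an NMD target, so the values do not stand for SR mRNA or protein. Many share exon bases with the unlisted coding transcripts, such as 1115 coding bases in SRSF11-214. How much of their value came from reads of those transcripts was not tested.

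The table gives 1 value per transcript and library in a unit that its header does not name, called the listed value here. Listed values of the whole table summed to 47632 in resistant and 46879 in parental cells, and the depth of the libraries is not stated. Approximate counts, from the listed value, the locus length and transcripts whose count was known, ran from 32 to 10037 per library for the 19 SR transcripts averaging at least 1. Log2 ratios are log2(resistant value + 1) minus log2(parental value + 1), which understates the differences of low transcripts, and genes whose 2 values averaged at least 1 were called expressed. The median log2 ratio of the 5767 expressed genes was 0.16, the level against which member ratios are read. Multiplied by the length of the locus including introns, the listed values were proportional to read counts, so a listed value is a count per locus length. Shares of isoforms within a gene are on that scale and weight short loci more than counts would. Of the line's markers, the keratin KRT8 was listed at 318.2 in resistant and 166.4 in parental cells and KRT7 at 73.3 and 62.6. KRT18 was listed at 5.83 and 14.3 and ERBB2, amplified in SKOV3, at 3.84 and 5.37, whereas EPCAM and PAX8 stayed below 1 and WT1 had no listed transcript. Of 7 markers of leukocytes, endothelium and fibroblasts, 2 had listed transcripts, with sums of 0.207 and 0.236. The annotated types of these marker transcripts were not checked, so the values need not stand for marker mRNA or protein. In such bulk RNA, a change in the share of cells and a change of RNA per cell cannot be told apart.

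Summed over the 48 transcripts, SR isoforms were listed at 118.7 in resistant and 59.8 in parental cells, a ratio of 1.99, or 0.249% against 0.128% of the table. A single isoform, SRSF2-209, carried much of this, and without it the sums were 86.8 and 57.6, a ratio of 1.51. Of the 9 expressed members, SRSF2 and SRSF10 were at least 2-fold higher on the log2(value + 1) scale, where 8.5% of all expressed genes were, and 0 were at least 2-fold lower, where 4.37% were. The log2 ratio was above 0 in 8 of the 9, against 61.9% of all expressed genes, and SRSF3 was the exception. The median of the 9 was 0.61.

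**Figure D1:**
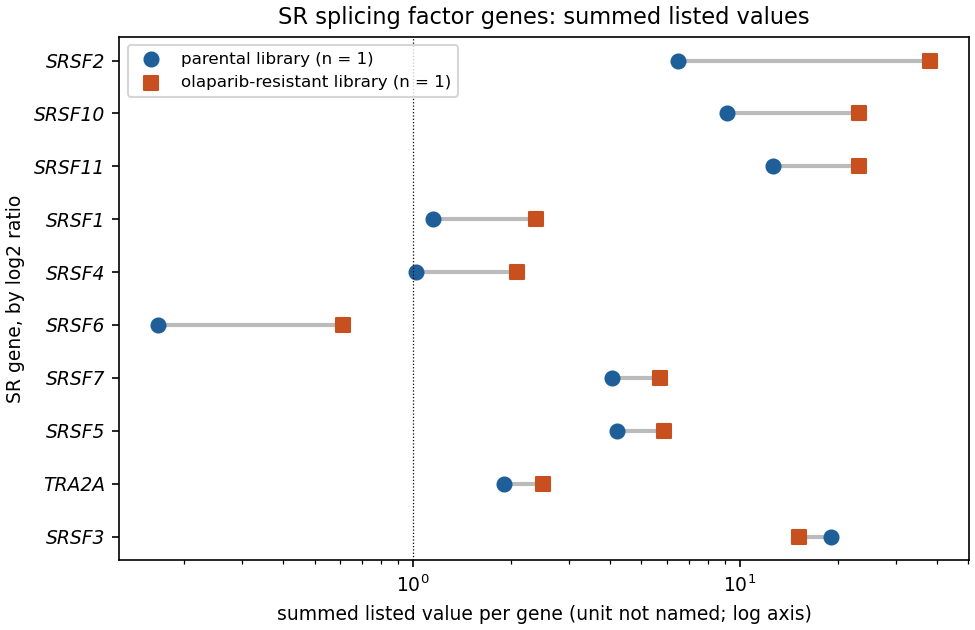
Summed listed value of each SR gene (log axis, unit not named in the table) in the parental (circles) and the olaparib-resistant library (squares), 1 library each, ordered by log2 ratio. The dotted line marks a value of 1. SRSF2 moved from 6.49 to 38.2, and SRSF3 alone lies to the left in the resistant library, at 15.1 against 19.0.

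SRSF2 (SC35, ENSG00000161547, chromosome 17), a nuclear SR protein that binds exonic enhancers and marks nuclear speckles, had the largest log2 ratio of the members. Its 4 transcripts summed to 38.2 in resistant and 6.49 in parental cells, 5.89-fold higher, and its log2 ratio of 2.39 was above that of 99.3% of expressed genes. SRSF2-209 was listed at 31.9 in resistant and 2.21 in parental cells, 14.5-fold higher, with a log2 ratio of 3.36 that exceeded that of 99.7% of transcripts with a mean of at least 1. Its approximate counts were 2271 (95% Poisson interval 2179 to 2366) and 227 (198 to 259), intervals that cover counting error only. Without it the log2 ratio of SRSF2 was 0.46. It held 83.6% of the gene's value in resistant and 34.0% in parental cells.

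By annotation SRSF2-209 (chr17:76734163-76735661, minus strand) shares 0 bases with the coding sequence of the principal transcript SRSF2-202. Its 2 exons, of 601 and 400 bases, lie in the last intron and the 3′ untranslated region. Their junction also occurs in SRSF2-208, an annotated NMD target in which the 3′ untranslated region is spliced, a known route by which SRSF2 limits its own mRNA. SRSF2-210, which has the same junction behind another first exon, went the other way, at 1.02 in resistant and 2.20 in parental cells, a log2 ratio of −0.66. SRSF2-206, which includes an alternative exon within intron 2 and 301 coding bases, was listed at 5.25 and 1.94, a log2 ratio of 1.09. SRSF2-211 was at or below 0.145 in both libraries. The makeup of the listed isoforms thus passed from similar shares for SRSF2-209, SRSF2-206 and SRSF2-210 in the parental library (34.0%, 29.9% and 33.9%) to 83.6%, 13.7% and 2.67% in the resistant one. Genes on the opposite strand, among them MFSD11, and MIR636 on the same strand are annotated over SRSF2. None of them had a listed transcript that overlapped an SRSF2 member, and whether the counting used strand was not given in the sources used here.

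SRSF3 (SRp20, ENSG00000112081, chromosome 6), the smallest SR protein, which also serves as an adaptor for mRNA export, was the member whose sum was lower. It was listed at 15.1 in resistant and 19.0 in parental cells, a log2 ratio of −0.31. Weighted by locus length the log2 ratio was −0.83. Its isoforms differed in opposite directions. SRSF3-207 was higher, at 11.2 against 4.29, a log2 ratio of 1.20. SRSF3-201 was lower, at 0.790 in resistant and 9.77 in parental cells, 12.4-fold lower, with a log2 ratio of −2.59 that was below that of all but 0.611% of transcripts with a mean of at least 1. Its approximate counts were 244 (214 to 277) and 4373 (4244 to 4505). The direction of the gene's sum rested on SRSF3-201, since the log2 ratio was 0.59 without it. SRSF3-201 held 51.4% of the gene's value in the parental and 5.22% in the resistant library, and SRSF3-207 held 22.6% and 73.8%. Among genes with at least 2 transcripts of mean 1 or more, 4.88% held both a 2-fold higher and a 2-fold lower one, and among the 5 such SR genes SRSF3 was 1.

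Both of these isoforms contain the SRSF3 poison exon, the annotated 456-base exon in intron 3 (chr6:36599821-36600276, plus strand). In SRSF3-201, exons 1 to 3 are spliced to the start of the poison exon, which then runs 605 bases past its own donor. SRSF3-207 starts in intron 3, 383 bases before the poison exon, runs unspliced through it and into exon 4, and has introns 4 and 5 spliced out. The sequences are shown because they separate the spliced from the unspliced use of the same exon. In the first, the last 12 bases of exon 3 are joined to the poison exon, read in the frame of the principal protein up to the first stop codon, in capitals, which starts at base 32 of the poison exon. In the second, intron sequence is in lower case and the start of exon 4, in capitals (chr6:36601134-36601163).
SRSF3-201 junction: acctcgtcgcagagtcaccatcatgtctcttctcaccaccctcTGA
SRSF3-207 acceptor: tcctgtttctgcttttagATCTCCAAGAAG
The transcripts holding the whole poison exon summed to 11.97 in resistant and 14.1 in parental cells, a difference that depends on the scale. Weighted by locus length, which is longer for SRSF3-201, the same sums were 42.5 in resistant and 78.0 in parental cells (value times kilobases), 1.84-fold lower. SRSF3-205, a single exon of 2376 bases with introns 4 and 5 unspliced, was listed at 2.49 and 3.45, and SRSF3-206, which runs past the donor of intron 2, at 0.688 and 1.48. Their log2 ratios were −0.35 and −0.56.

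**Figure D2:**
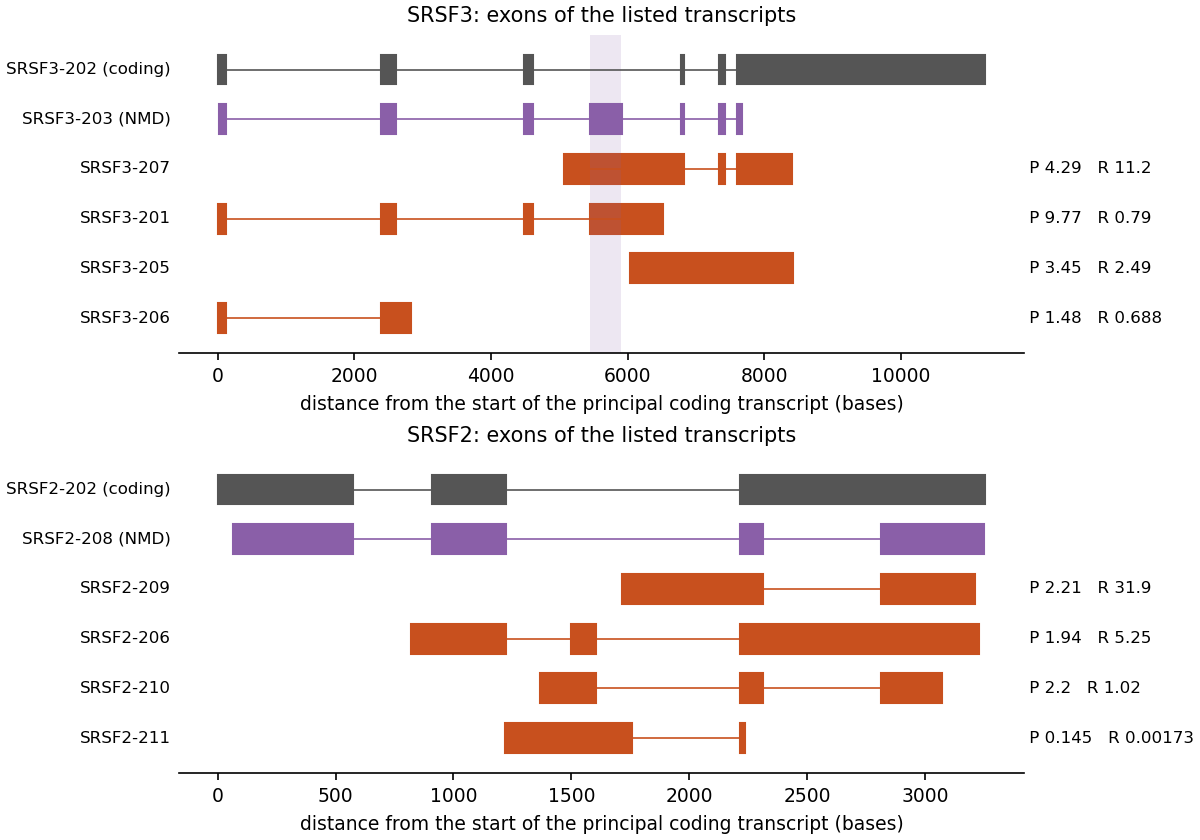
Exons (boxes) and introns (lines) of the principal coding transcript, an annotated NMD target and the listed isoforms of SRSF3 and SRSF2, by distance in bases from the start of the principal transcript, with listed values in the parental (P) and resistant (R) library, 1 each. The shaded band is the 456-base SRSF3 poison exon, present in SRSF3-207 (11.2 against 4.29) and SRSF3-201 (0.790 against 9.77).

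SRSF10 (SRp38, ENSG00000188529, chromosome 1), an SR protein that represses splicing when dephosphorylated, as in mitosis or after heat shock, was the other member at least 2-fold higher. Its 6 transcripts summed to 23.1 in resistant and 9.16 in parental cells, 2.52-fold higher, with a log2 ratio of 1.25 above that of 95.3% of expressed genes. SRSF10-212 accounted for most of it, at 16.9 against 4.69, a log2 ratio of 1.66. The log2 ratio of SRSF10 stood near the 2-fold threshold: it was 0.99 with a pseudocount of 5, 0.95 with values weighted by locus length and 0.39 without SRSF10-212. SRSF10-212 held 73.4% of the gene's value in resistant and 51.2% in parental cells. SRSF10-213 was listed at 4.12 and 2.24, a log2 ratio of 0.66, and SRSF10-208 at 1.51 and 0.582, a log2 ratio of 0.67.

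These isoforms differ from the principal transcript SRSF10-214 at the ends of its intron 2, which is 3635 bases long and begins with AT and ends with AC. Of the principal introns whose ends could be read from annotated transcripts, 16 of 17 had GT and AG ends and this was the other. The ends of a further 41 principal introns could not be read. AT-AC introns are mostly removed by the minor, U12-type spliceosome. SRSF10-212 and SRSF10-208 use a donor 60 bases further into the intron and join it to the 363-base exon of the NMD target SRSF10-215, a junction found in no annotated coding transcript. SRSF10-213 starts within the intron and runs through its AC end. The donor (chr1:23978695-23978724, minus strand) and the acceptor (chr1:23975066-23975095, minus strand) are shown because the listed isoforms contain them unspliced, with exon bases in capitals. Read in frame past the donor, the first stop codon, TGA, starts at intron base 38.
SRSF10-212 donor: TGCTTATGTTCAatatcctttcttcagatg
SRSF10-213 acceptor: ccccttaacatttagcacATTTGAGGATGT

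SRSF11 (p54, ENSG00000116754, chromosome 1), an SR-related protein that interacts with the U2AF splice site factors, was listed at 23.2 in resistant and 12.7 in parental cells over 10 transcripts, a log2 ratio of 0.82. Its isoforms moved together more than those of SRSF2 or SRSF3, with 8 of 10 higher. SRSF11-214, the leading isoform, was listed at 9.74 and 6.09, a log2 ratio of 0.60, and its share was 42.0% against 48.1%. SRSF11-209 was listed at 7.08 and 3.48, a log2 ratio of 0.85. SRSF11-210 had the largest ratio, at 3.57 against 0.955, a log2 ratio of 1.22, and its share was 15.4% against 7.55%. SRSF11-207 was listed at 1.70 and 1.37, a log2 ratio of 0.19.

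As in SRSF3, these isoforms centre on intron 3, which holds a 109-base exon of an annotated NMD target (chr1:70231095-70231203, plus strand). SRSF11-210 splices it behind exon 3 and runs 65 bases past it, and SRSF11-214 begins inside intron 3 with a first exon of 1698 bases that contains it. SRSF11-209 runs past the donor of intron 3 instead. The sequences are shown to set the spliced and the unspliced end of exon 3 beside each other: the junction, with the first stop codon in the principal frame in capitals (base 21 of the exon), and the donor, with exon bases in capitals (chr1:70228544-70228573), after which the first in-frame stop, TAA, starts at intron base 15.
SRSF11-210 junction: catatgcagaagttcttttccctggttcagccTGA
SRSF11-209 donor: CATATGCAGAAGgtttgtgctttgtttaac
The 4 SRSF11 transcripts with the whole poison exon summed to 15.01 in resistant and 8.56 in parental cells, and the other SRSF11 transcripts to 8.17 and 4.10. A listed transcript of another gene, AL353771.1-201, overlapped SRSF11-209, at 0.00121 and 0.0801.

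TRA2A (ENSG00000164548, chromosome 7), a homologue of the Drosophila splicing regulator transformer-2 that binds GAA-rich enhancers, was listed at 2.50 in resistant and 1.90 in parental cells, a log2 ratio of 0.27. None of its 6 transcripts reached a mean of 1. The leading one, TRA2A-209, which runs past the donor of intron 5, was listed at 0.866 and 0.188, 34.7% and 9.94% of the gene's value. Without it the log2 ratio of TRA2A was −0.040, and with values weighted by locus length it was 1.35.

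**Figure D3:**
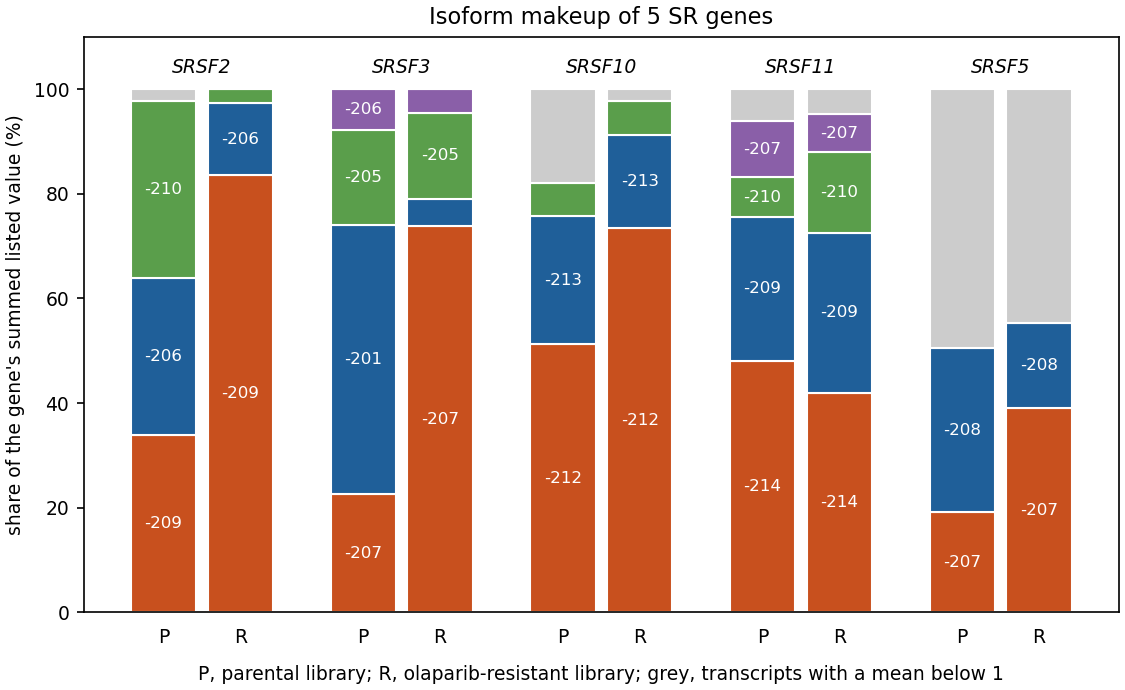
Share of each gene's summed listed value (%) held by each isoform in the parental (P) and resistant (R) library, 1 each, for the 5 SR genes with at least 2 isoforms of mean 1 or more; numbers are isoform suffixes and grey is the rest. SRSF2-209 widened from 34.0% to 83.6%, and SRSF3-201 narrowed from 51.4% to 5.22%.

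The remaining 5 members had log2 ratios from 0.39 to 0.65. SRSF1 (SF2/ASF, ENSG00000136450, chromosome 17), the founding SR protein and a proto-oncogene, was listed at 2.39 in resistant and 1.16 in parental cells, a log2 ratio of 0.65. Nearly all of it was SRSF1-202, without which the log2 ratio was −0.17, at 2.37 and 1.009 (99.3% and 87.3% of the gene). SRSF7 (9G8, ENSG00000115875, chromosome 2), an export adaptor with a zinc knuckle, was listed at 5.71 and 4.06, a log2 ratio of 0.41, of which SRSF7-211 made up 5.70 and 3.999. The rest of SRSF7 had a log2 ratio of −0.071. SRSF4 (SRp75, ENSG00000116350, chromosome 1), SRSF5 (SRp40, ENSG00000100650, chromosome 14) and SRSF6 (SRp55, ENSG00000124193, chromosome 20) each have a second, diverged RNA recognition motif. SRSF4 was listed at 2.08 and 1.02, a log2 ratio of 0.61, led by SRSF4-208 at 1.44 and 0.572, and 1.19 with values weighted by locus length. SRSF5 was listed at 5.85 and 4.22 over 9 transcripts, a log2 ratio of 0.39, and 0.88 with that weighting. Within SRSF5, SRSF5-207 was higher, at 2.29 against 0.810 (39.1% and 19.2% of the gene), and SRSF5-208 was lower, at 0.952 against 1.32, with log2 ratios of 0.86 and −0.25. SRSF6 had SRSF6-206 alone, at 0.612 and 0.166, and was below the level called expressed; its log2 ratio of 0.47 was 0.85 with that weighting.

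The leading isoforms of SRSF1, SRSF4, SRSF5 and SRSF7 also run across a splice site of their principal transcript, and those sites are printed with exon bases in capitals and intron bases in lower case. SRSF1-202 runs past the donor of intron 2 (chr17:58006325-58006354, minus strand), where the first in-frame stop is TGA at intron base 24. SRSF4-208 keeps intron 2 whole (donor chr1:29160357-29160386, minus strand, TAA at base 60), and SRSF5-207 keeps introns 4 and 5 (donor of intron 4 chr14:69768885-69768914, plus strand, TGA at base 26). These stops were read in the frame of the principal protein. SRSF4-208 also holds exons that an annotated NMD target has in intron 1, ahead of that donor, so the TAA need not be its own first in-frame stop. SRSF7-211 starts within intron 5 and runs through its acceptor (chr2:38746736-38746765, minus strand).
SRSF1-202 donor: TGGTTGTCTCTGgtgagtgtactggttgtg
SRSF4-208 donor: GTTCTGGACGCAgtaagcattcaaagggca
SRSF5-207 donor: AAATGATAGACGgtatgtgaagggtggatg
SRSF7-211 acceptor: ttcactttttttattaagATCCCCGTCGAG

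Across all members, 19 transcripts had a mean of at least 1, of which 14 were higher and 5 lower in the resistant library, and their median log2 ratio was 0.66. The median of all 6711 transcripts with such a mean was 0.15, and 59.3% of these were above 0. At least 2-fold higher were 5 SR transcripts (SRSF2-209, SRSF10-212, SRSF11-210, SRSF3-207 and SRSF2-206), where 11.8% of all such transcripts were, and SRSF3-201 was at least 2-fold lower, where 7.42% were. The other 29 SR transcripts, 18 higher and 11 lower, had listed values of at most 1.34 and log2 ratios from −1.02 to 0.65. In the authors' deposited table, 10 of the 19 had an adjusted p under 0.05, 7 higher and 3 lower, where 36.2% of all transcripts with such a mean had. That p, whose test was not given in the sources used here, sets 2 libraries against each other, not 2 conditions. The authors' deposited table gave SRSF3-201 a log2 fold change of −3.91 (adjusted p = 5.61e-16) and SRSF2-209 one of 3.57 (adjusted p = 8.39e-14). The authors' deposited table gave SRSF10-212 a log2 fold change of 1.57 (adjusted p = 0.000682) and SRSF11-210 one of 1.62 (adjusted p = 0.000463). For SRSF2-210 and SRSF3-206, lower by less than 2-fold in the listed values with the pseudocount, the authors' deposited table gave −1.38 and −1.39.

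**Figure D4:**
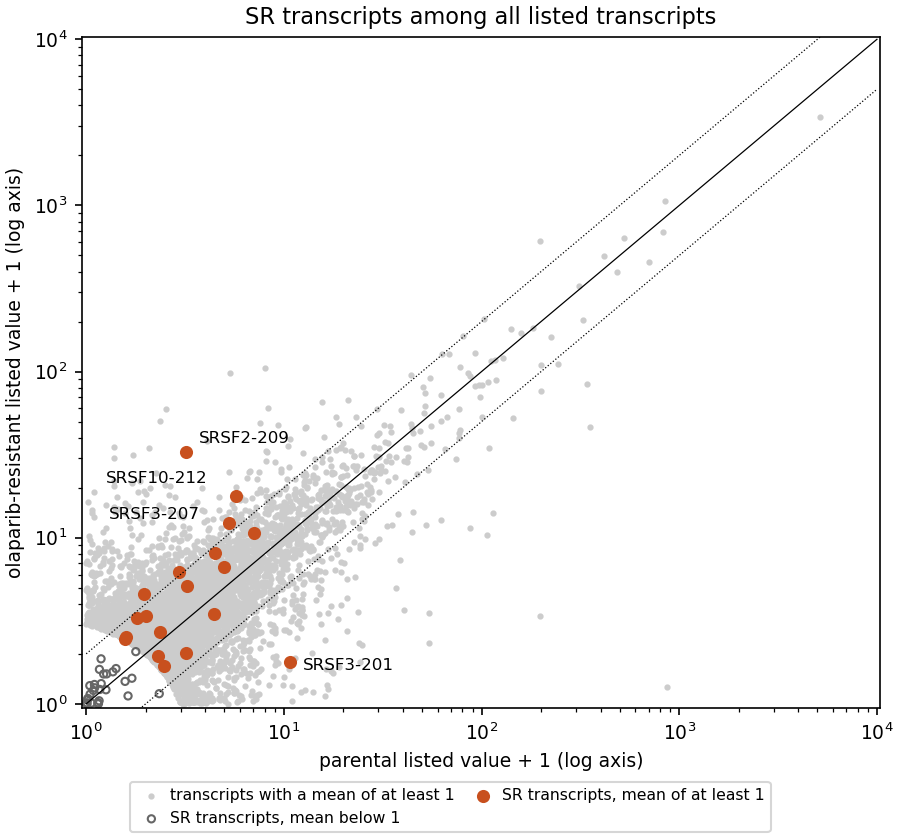
Listed value + 1 in the parental (x) and resistant (y) library on log axes, 1 library each, for the 6711 transcripts with a mean of at least 1 (grey) and the 48 SR transcripts (filled where the mean was at least 1). The solid line marks equal values and the dotted lines a 2-fold difference; SRSF2-209 and SRSF3-201 lie far from the line on opposite sides.

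The isoforms were then grouped by structure rather than by gene. The groups have no filter on the mean, and no share over all transcripts is given here for their counts of higher and lower ones. In 33 SR transcripts an exon extended across a splice site of the principal transcript. These summed to 103.5 in resistant and 37.8 in parental cells, with 24 higher and 9 lower. Of the 15 with a mean of at least 1, 12 were higher, where 59.3% of all transcripts with such a mean were. Without SRSF2-209 the sums were 71.6 and 35.6. The 14 transcripts with no such extension summed to 14.6 and 21.8, and without SRSF3-201 to 13.9 and 12.1, so the lower sum of that group rested on SRSF3-201. Its direction also rested on the scale, since weighted by locus length the 14 summed to 241.2 and 222.1. A junction found in annotated NMD targets but in no coding transcript occurred in 11 transcripts of 5 genes (SRSF2, SRSF3, SRSF4, SRSF10 and SRSF11). These summed to 72.3 in resistant and 30.5 in parental cells, 2.37-fold higher, with 7 higher and 4 lower, and to 40.4 and 28.3 without SRSF2-209. Weighted by locus length the 11 were 1.56-fold higher. The 8 transcripts that contain a whole poison exon summed to 45.3 and 27.9, with 6 higher and 2 lower. In 2 of the 8 such an exon has its annotated ends, and in the others it lies inside a longer exon. No SRSF2 exon met the rule used here for a poison exon. SRSF2-206, with 2 junctions found in NMD targets and in no coding transcript, is therefore not among the 8. The share of the 8 in all SR listed value was 38.2% in resistant and 46.6% in parental cells. With SRSF2-209 left out of the total it was 52.2% and 48.4%, so on the listed scale its direction rested on SRSF2-209. Weighted by locus length, the 8 were 1.49-fold higher and all SR transcripts without SRSF2-209 were 1.61-fold higher. On that scale the share was lower in resistant cells even without SRSF2-209.

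The share of a gene's summed listed value held by its leading isoform, the one with the largest mean, gives the makeup of its listed isoforms in 1 number. For the SR genes no transcript annotated as coding is listed, so it is not a share of the gene's RNA. It differed by at least 20 percentage points in 4 of the 9 expressed members, where 29.1% of the 5032 expressed genes with at least 2 transcripts did. The differences were 51.2 points in SRSF3, 49.6 in SRSF2, 24.7 in TRA2A and 22.1 in SRSF10. SRSF5 lay just below, at 19.9 points. It reached 21.2 when values were weighted by locus length, a scale for which no share over all genes is given here. SRSF11 (−6.09) and SRSF7 (1.33) differed least. The median absolute difference over those 5032 genes was 11.4 points.

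The rest of the SR pathway was given by 5 lists. Of the other SR proteins, SRSF9 was listed at 49.3 in resistant and 35.9 in parental cells and TRA2B, the paralogue of TRA2A, at 19.9 and 13.1, log2 ratios of 0.45 and 0.57. SRSF12 was at or below 0.0536 in both libraries and SRSF8 had no listed transcript. Of 9 kinases that phosphorylate SR proteins or related factors, 8 were expressed, 7 of them above 0, and 0 passed 2-fold. SRPK1, the main cytoplasmic SR kinase, was listed at 36.4 and 22.4 and CLK1, a nuclear one, at 19.1 and 12.6.

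The genes past 2-fold were all in the list of SR-related proteins, of which 4 of 18 expressed members were at least 2-fold higher, against 8.5% of all expressed genes, and 0 lower, against 4.37%. Of all list genes, 1 stayed at least 2-fold higher after rescaling by the median ratio of expressed genes (log2 0.23) or with a pseudocount of 5, and 7 were with a pseudocount of 0.1. The share of all expressed genes at those settings is not given here. SON, a large speckle protein needed for splicing of weak introns, was listed at 18.9 in resistant and 2.46 in parental cells, a log2 ratio of 2.52. SREK1, a splicing regulator with an arginine-serine domain, was listed at 20.4 and 9.05, a log2 ratio of 1.09. LUC7L2, a U1 snRNP-associated factor, was listed at 4.95 and 1.85, and SNRNP70, the U1 protein that SR proteins contact at donors, at 16.7 and 7.66. Their log2 ratios were 1.06 and 1.03. RBM39, a U2AF-like splicing factor, was listed at 66.1 and 45.4, and ACIN1, which associates with the exon junction complex, at 13.5 and 9.67. The median log2 ratio of this list was 0.45.

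Of 11 splicing antagonists and export partners, 9 were expressed, with a median log2 ratio of 0.13 and 0 past 2-fold. HNRNPH1, which binds G-rich elements, was listed at 26.1 and 20.002, and HNRNPK, which binds C-rich elements, at 17.9 and 17.1. Of 11 NMD factors, 6 were expressed, 3 above and 3 below 0, with a median of 0.21 and 0 past 2-fold. SMG1, the kinase of UPF1, was listed at 7.79 and 5.49, and SMG5, a decay adaptor, at 7.11 and 3.35. Of the 328 listed transcripts of the 5 lists, 242 were annotated as retained-intron and 83 as processed transcripts, and 3 were not found in the release used. Retained-intron transcripts held 92.3% of the lists' value in resistant and 93.6% in parental cells, so these sums do not stand for the mRNAs.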

How the data were processed

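Each library had 1 normalized signal per transcript in the deposited table, whose header names no unit. The table also holds the authors' log2 fold change and their raw and adjusted p-values. Alignment with HISAT2 and assembly with StringTie are named in the submitters' processing notes, with no version. A mouse build, mm10, appears there too, although identifiers and loci in the table are human (GRCh38).

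Values were summed by gene name and compared as log2(value + 1), with a mean of at least 1 called expressed and a threshold of 2-fold. Python 3.11.15, pandas 2.3.3 and numpy 2.4.6 were used. Depth is not stated. Transcripts with a count of 0 were found from the constants of 0.114 (resistant) and 0.136 (parental) in the deposited fold changes, a step tested on simulated data. Of the members, 6 had a count of 0 in resistant and 1 in parental cells, each with a listed value of at most 0.151. Beside a count of 0, the other library's count over 20 was proportional to its listed value times locus length (within 0.3 on the log2 scale in 100% of 3429 parental and 3114 resistant transcripts). Approximate counts of the named transcripts were scaled from this, with exact Poisson intervals. Exon structure and sequences were read from GENCODE release 29. The principal transcript was the APPRIS principal isoform. A poison exon was an internal exon of an annotated NMD target, inside an intron of the principal transcript and overlapping no exon of a coding transcript. A stop codon was not required, and the SRSF4 exon at chr1:29168503-29168638 had none in the principal frame. Genes of the same strand are also annotated over SRSF1 (AC015813.2) and SRSF4-208 (RF02271). How reads shared with these, or with pseudogenes of SR genes, were assigned was not given in the sources used here.

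Named were all 10 members, each transcript with a mean of at least 1 and each leading transcript, and from the lists each gene past 2-fold and up to 2 others with the largest mean. The members and lists were chosen with earlier results of these data known. A second deposited list of transcripts was not used.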

Additional observations from a re-analysis of the deposited data

How the results depend on the processing

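Each of the following changed 1 choice and kept the rest. Shares of all genes or transcripts past 2-fold are given here for the main setting only. The counts below therefore show how the calls moved, without a level to read them against. Of 79 gene values under 8 settings, 66 kept their direction and their side of 2-fold. A pseudocount of 0.1 gave 10 SR transcripts higher and 3 lower and 7 list genes higher and 1 lower, and took SRSF6 to 1.42. A pseudocount of 5 left SRSF10 at 0.99, 1 SR gene, 2 SR transcripts and 1 list gene at least 2-fold higher. Without a filter 2 SR transcripts were lower, and with a mean of at least 5 there were 3 higher. Rescaling by the median ratio of expressed genes (log2 0.23) left 3 SR transcripts and 1 list gene higher. With the largest-mean transcript alone SRSF3 turned to 1.20, and 2 list genes were higher. The authors' deposited log2 fold changes gave 8 SR transcripts higher and 3 lower. The next 3 alternatives were chosen after seeing the data. Values multiplied by locus length gave 1.19 for SRSF4, 1.35 for TRA2A, 0.95 for SRSF10, −0.83 for SRSF3, 0.88 for SRSF5 and 0.85 for SRSF6. They took the leading share to 85.5% (parental) for SRSF4-208, 66.7% and 45.6% (resistant, parental) for SRSF5-207, 30.6% (parental) for SRSF10-212, and 52.4% and 30.3% for TRA2A-209. Rescaling to the deposited fold changes (log2 0.28) left SRSF10 at 0.97, 1 SR gene and 3 SR transcripts higher. Without each gene's transcript of largest difference, SRSF1 (−0.17), SRSF3 (0.59), SRSF7 (−0.071) and TRA2A (−0.040) changed sign, SRSF2 fell to 0.46 and SRSF10 to 0.39, and 0 SR genes were at least 2-fold higher. In each of these the cause was not tested beyond the construction of the alternative. With values at a count of 0 set to 0, the 20 leading shares (10 genes, 2 libraries) moved by at most 0.705 percentage points. No paired analysis was possible because each group had 1 library, and no library could be left out for the same reason. Counting error was given from approximate counts for SRSF2-209 and SRSF3-201. The smallest approximate count among the 19 SR transcripts averaging at least 1 was 32 (21.9 to 45.2), of SRSF10-208 in parental cells.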

Other observations

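In the whole table, 5464 transcripts had a count of 0 in resistant and 5241 in parental cells by the deposited fold changes, yet each had a listed value above 0. Of the resistant values, 5466 had more than 6 decimals, and 5453 of these had a resistant count of 0, whereas 5 parental values had more than 6 decimals. At a resistant count of 0, the parental value was a median of 52.0 times the resistant one (quartiles 27.0 and 75.6). At a parental count of 0, the resistant value was a median of 6.37 times the parental one (quartiles 3.33 and 9.35). Among SR transcripts this touched 7, namely 6 with a count of 0 in the resistant library (SRSF1-203, SRSF2-211, SRSF7-212, SRSF10-201, SRSF11-208 and SRSF11-213) and SRSF11-215 with a count of 0 in the parental one. SRSF2-211 was listed at 0.00173 in resistant and 0.145 in parental cells, and SRSF10-201 at 0.151 and 1.34. None of the 19 SR transcripts with a mean of at least 1 had a count of 0, and the log2 ratio of their listed values without a pseudocount lay 0.27 to 0.30 above the deposited log2 fold change.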
